A study of Mus musculus with 6 samples.

Results

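Conventional dendritic cells present antigen to T cells, and 10 genes for factors that guide precursors into this lineage or into its branches were followed here: Zbtb46, Batf3, Batf, Nfil3, Bcl6, Zfp366, Zeb2, Klf4, Notch2 and Rbpj. They were taken as every array probe whose annotated gene is one of these, and 9 of the 10 genes had a probe, out of 19057 genes named on the array. No probe carrying the name Nfil3 was in the annotation used, so that gene was not analysed here. The 9 genes had 22 probes, and 11 of these, from 7 genes, were bright enough to test. Zfp366 and Rbpj had probes but none that could be tested.

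Total RNA of sorted bone marrow cells from female C57BL/6 mice aged 7 weeks was hybridised to 6 single-colour arrays. Of these, 3 held CCR9+ plasmacytoid dendritic cells (pDCs), a lineage known for secreting type I interferon. The other 3 held CCR9- pDC-like cells, described in the series as precursors of dendritic cells. All 6 samples are untreated cells of the same strain, sex and age, and CCR9, a chemokine receptor, is the only sorted difference the labels give. The labels do not say which other gates were used or whether animals were pooled. The series speaks of independent isolations, and each test between groups below rests on 3 arrays a group. The limma p-values use the spread between these arrays, moderated towards that of all genes in the fit.

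Dendritic cell fate is set by competing transcription factors. In the textbook account Zbtb46 marks cells committed to the conventional lineage and is absent from pDCs, Batf3 and Nfil3 act in the branch that presents antigen from other cells on MHC class I, and Notch2, through its DNA-binding partner Rbpj, and Klf4 act in parts of the other branch. Zeb2 and Bcl6 are repressors, and Zeb2 also favours pDC development. Precursors and finished cells can be set apart by such factors, which is the question the comparison of these populations bears on.

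Windows at the RefSeq start sites of the members with the largest differences are shown first. Whether they act as promoters was not tested. The bases just before the Zbtb46 start read like the end of an intron, so its window may lie inside the gene. Zbtb46 and Klf4 had higher signals in precursors and Batf3 lower ones. Each window runs from 250 bases before to 50 bases after a RefSeq start site in build GRCm38.p6, written in the direction of the gene: Zbtb46 on the minus strand at chr2:181424339-181424638, Klf4 on the minus strand at chr4:55532426-55532725 and Batf3 on the plus strand at chr1:191098164-191098463. Capitals mark matches, on either strand, to short sequences bound by factors of this kind: TGACTCA (AP-1, bound by Batf and Batf3 with Jun proteins), CACCTG (an E-box bound by ZEB proteins), TGGGAA (the core bound by Rbpj) and CCACCC (bound by Klf proteins).
Zbtb46: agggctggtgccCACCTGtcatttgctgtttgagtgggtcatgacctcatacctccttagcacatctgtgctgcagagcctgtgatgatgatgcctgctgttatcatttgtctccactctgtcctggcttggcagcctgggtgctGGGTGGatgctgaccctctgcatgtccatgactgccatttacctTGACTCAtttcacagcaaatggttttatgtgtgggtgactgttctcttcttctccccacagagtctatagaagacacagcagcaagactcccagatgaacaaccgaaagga
Klf4: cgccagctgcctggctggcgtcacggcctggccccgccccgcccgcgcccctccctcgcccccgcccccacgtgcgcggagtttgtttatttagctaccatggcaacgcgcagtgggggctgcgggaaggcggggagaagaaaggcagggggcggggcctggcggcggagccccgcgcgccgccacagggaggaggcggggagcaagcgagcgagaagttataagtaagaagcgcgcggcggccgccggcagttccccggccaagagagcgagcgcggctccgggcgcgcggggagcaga
Batf3: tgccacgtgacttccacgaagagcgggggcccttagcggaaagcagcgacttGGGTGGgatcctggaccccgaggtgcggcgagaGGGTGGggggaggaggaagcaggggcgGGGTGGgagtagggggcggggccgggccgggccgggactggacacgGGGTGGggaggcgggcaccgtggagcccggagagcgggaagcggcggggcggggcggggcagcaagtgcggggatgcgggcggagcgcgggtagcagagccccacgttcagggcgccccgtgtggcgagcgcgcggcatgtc

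The Zbtb46 window held the AP-1 letters 61 bases before the start, the Klf letters 105 bases before it on the opposite strand and the E-box 238 bases before it. The Batf3 window held the Klf letters 4 times, all on the opposite strand, between 198 and 92 bases before the start. In the Klf4 window none of these letters occurred, which says nothing about the factors. The marked matches do not overlap one another. Of 32851 such windows of all genes, 5.2% held the AP-1 letters, 20.2% the E-box, 25.6% the Rbpj core and 31.5% the Klf letters. The members had 14 windows in 9 genes (none was listed for Zfp366), of which 2, 2, 4 and 3 held them. Some windows of Zeb2 and of Rbpj overlap, and 1 Rbpj core match lies in both Rbpj windows.

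Signals are log2 values after background correction and quantile normalization, and every difference is the precursor mean minus the pDC mean. A gene was called where its adjusted p in a limma fit of all genes was below 0.05, with Benjamini-Hochberg adjustment over 9561 genes. Of the 7 member genes tested, 1 was called higher in precursors (Zbtb46), 2 were called lower (Batf3 and Bcl6) and 4 were not called (Batf, Zeb2, Klf4 and Notch2). Of all genes tested, 35.8% were called, 18.2% higher and 17.6% lower, so 3 of 7 is near the background and says nothing of the members as a set. Their median log2 fold change was 0.24 against 0.02 over all genes. The groups did not overlap for 4 of the 7 members, against 50.9% of all genes. Because the arrays measure RNA of whole sorted samples, fewer cells expressing a gene and less RNA per cell cannot be told apart in any of these values.

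**Figure D1:**
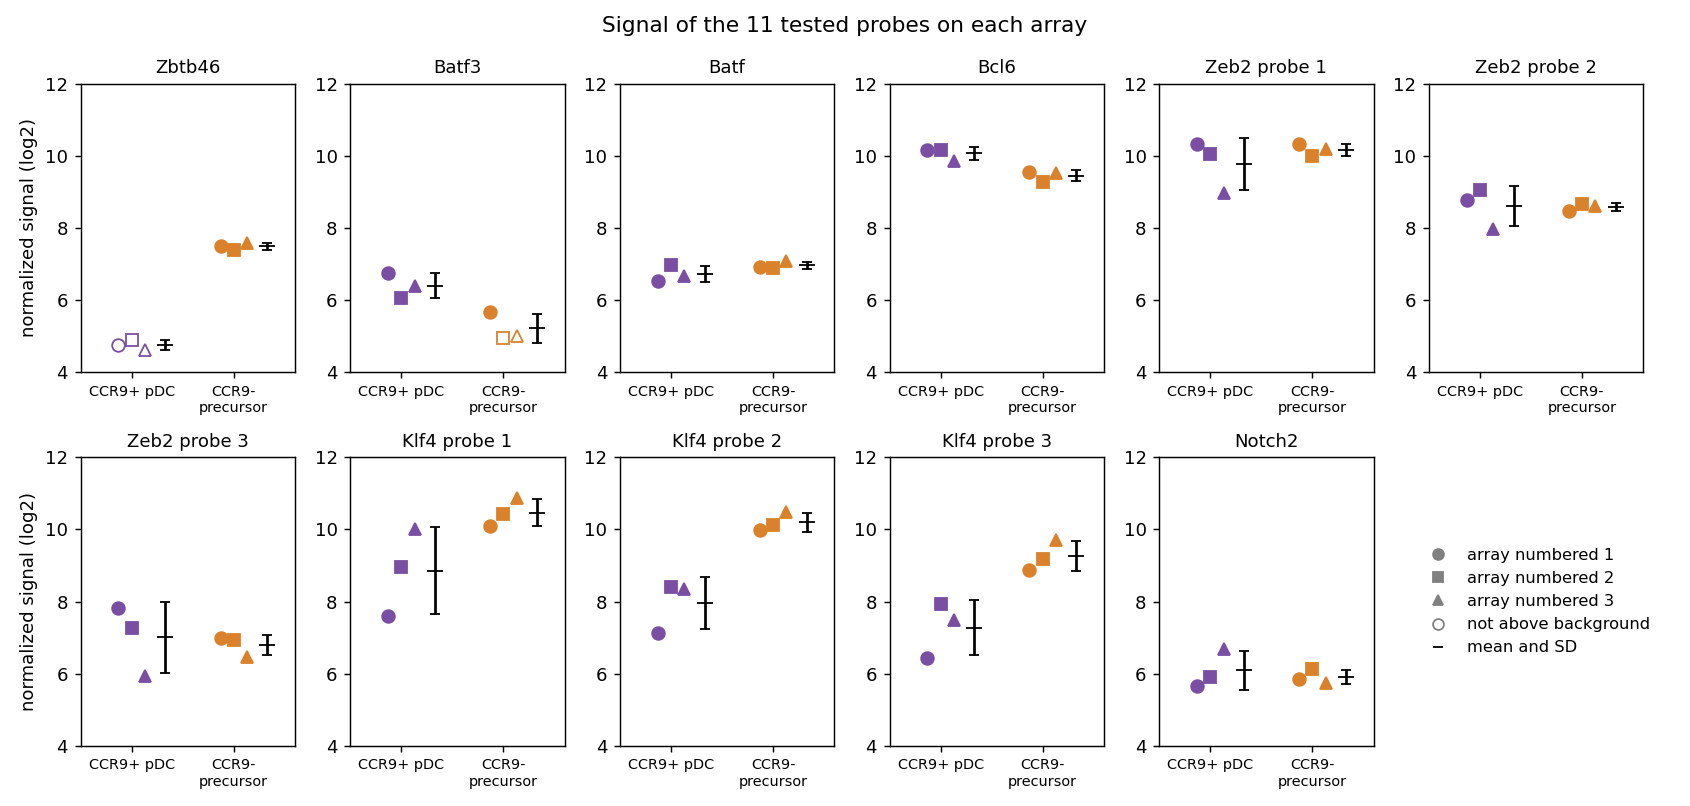
Normalized signal (log2) of the 11 tested member probes on each of the 6 arrays, in CCR9+ pDCs and CCR9- precursors. Symbols give the array number, open symbols are signals not above background, and bars are the mean and SD of 3 arrays. Zbtb46 is above background on precursor arrays only, and Klf4 and Zeb2 spread more among pDC arrays than among precursor arrays.

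Zbtb46, a zinc finger factor of the conventional lineage, was above background in precursors alone. Its tested probe gave 4.76, 4.88 and 4.60 on the pDC arrays numbered 1, 2 and 3. On the precursor arrays the signals were 7.50, 7.38 and 7.57. The groups lay far apart with little spread inside either. The means were 4.75 ± 0.14 and 7.48 ± 0.10 (SD, n = 3). On these background-corrected signals the gene was at least 3.88-fold higher in precursors (limma adjusted p = 1.48e-05). It was called under each of the 16 alternative settings. Without background correction its log2 fold change was 1.18, and with the authors' processed values also 1.18, below the 1.33 and 1.28 of Klf4 under those settings. Both Zbtb46 values are smaller than the bound of 3.88-fold, which holds only for background-corrected signals.

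The tested Zbtb46 probe is annotated to the RefSeq mRNA. The other 2 Zbtb46 probes are annotated to cDNA clone sequences and stayed at background on all 6 arrays, with lowest detection p-values of 0.226 and 0.304. The Zbtb46 result therefore rests on a single probe. Genes with provisional names (Gm, LOC, Rik or a leading digit) were left out of the comparison with Zbtb46. After each gene was centred on its own mean over the 6 arrays, the 3 remaining genes with signals most like that of Zbtb46 were Kif11, Them7 and Cdca5. Their root mean square differences from Zbtb46 were 0.08, 0.11 and 0.12 on the log2 scale. This measure mostly picks genes with a group difference of like size. Their log2 fold changes were 2.67, 2.54 and 2.70, against 2.74 for Zbtb46. Unlike Zbtb46, Kif11 and Cdca5 were above background on all 3 pDC arrays. Shared regulation was not tested. Because Zbtb46 was not above background in pDCs, its centred profile and this order depend on the background correction, and the order was not computed under another one. Kif11 encodes a mitotic kinesin and Cdca5 a regulator of sister chromatid cohesion.

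Batf3, a small leucine zipper factor required for cross-presenting dendritic cells, went the other way. Its brighter probe gave 6.74, 6.06 and 6.39 on the pDC arrays. The precursor arrays gave 5.66, 4.96 and 5.01, and of these only the first was above background. All 3 pDC arrays lay above all 3 precursor arrays. The means were 6.40 ± 0.34 and 5.21 ± 0.39 (SD, n = 3), so Batf3 fell 2.28-fold in precursors (log2 fold change -1.19, SE 0.25, limma adjusted p = 0.0102), a value that rests partly on signals not above background. In a fit added once the data had been seen, which drops the third array of each group, the call ended (limma adjusted p = 0.065), and without background correction the log2 fold change was -0.43, with the authors' processed values -0.43 as well.

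A second Batf3 probe was above background on 2 of the 3 pDC arrays and on no precursor array, and was too dim to be tested. Its signals were 5.86, 5.59 and 5.30 on pDC arrays and 4.94, 4.97 and 4.96 on precursor arrays. They were higher in pDCs on every array, as for the brighter probe, and the lower bound of the fold on background-corrected signals was 1.08.

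Batf, the close relative of Batf3 best known from T and B cells, had 1 probe, above background on all 6 arrays. It gave 6.53, 6.97 and 6.67 on pDC arrays and 6.91, 6.89 and 7.08 on precursor arrays. The groups overlapped, and the log2 difference of 0.24 did not pass (95% interval -0.09 to 0.57, limma adjusted p = 0.229). The log2 difference between the Batf3 and Batf signals of an array lay between -0.91 and 0.21 on pDC arrays and between -2.07 and -1.24 on precursor arrays. The shift of -1.42 between the groups had an exact two-sided permutation p of 0.1, the smallest that this test can give with 3 against 3 arrays. Groups that do not overlap always give that p. The test was not planned and reuses the Batf3 values called lower above, so it is no separate evidence. Batf3 was not above background on 2 of the 3 precursor arrays, so the size of the shift rests on those dim signals.

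Among the basic leucine zipper partners and relatives in the list, none rose and 5 of 10 tested fell (Jund, Batf2, Fosl2, Dbp and, chosen after its values were seen, Tef), with a median log2 fold change of -0.74 against 0.02 over all genes, of which 17.6% were called lower. The count of 5 became 3 without CCR9+ pDC replicate 2, 3 without precursor replicate 2, 3 with no filter on dim probes, 3 without both arrays numbered 3, 2 under median scaling and 7 with the array number as a block. Batf2, another relative of Batf3, fell 1.74-fold (limma adjusted p = 0.0103), with 1 precursor array above background, and its log2 fold change of -0.80 was -0.27 without background correction. Fosl2, an AP-1 subunit gene, fell 1.64-fold (limma adjusted p = 0.00751) and Dbp, a clock output factor that shares DNA sites with Nfil3, fell 1.57-fold (limma adjusted p = 0.0034); neither was called under median scaling (limma adjusted p = 0.0917 and 0.119). The call of Jund (1.88-fold lower, limma adjusted p = 0.0495) was lost under 6 of 16 settings, among them without CCR9+ pDC replicate 2 or 3 (0.123 and 0.106) and without precursor replicate 1 or 2 (0.114 and 0.104).

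Bcl6, a repressor known from germinal centre B cells and needed for conventional dendritic cells, was bright on all arrays. Its signals were 10.17, 10.16 and 9.87 in pDCs and 9.55, 9.27 and 9.51 in precursors. Every pDC array exceeded every precursor array. The means were 10.06 ± 0.17 and 9.44 ± 0.15 (SD, n = 3), a fall of 1.54-fold in precursors (log2 fold change -0.62, SE 0.13, limma adjusted p = 0.0108). Under median scaling, which moved the median of all genes to 0.19, the log2 fold change was -0.35 and the call ended (limma adjusted p = 0.244).

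Repressors such as Bcl6, Zeb2 and the Zfp366 product act through corepressor complexes. Of 8 corepressor genes tested 2 rose and none fell, near the 18.2% of all genes called higher, with a median log2 fold change of 0.28. Hdac2, a histone deacetylase gene, rose 1.66-fold (limma adjusted p = 0.002) and Tbl1x, a subunit of the NCoR complex, rose 1.51-fold (limma adjusted p = 0.0133). The Tbl1x call ended without both arrays numbered 3 (limma adjusted p = 0.0603). The number of corepressor genes called was 4 without background correction, 4 under median scaling, 4 without CCR9+ pDC replicate 3 and 6 with an intensity trend, all of them higher.

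Zfp366 encodes DC-SCRIPT, a zinc finger protein of conventional dendritic cells. Its brighter probe was above background on 1 pDC array and 1 precursor array (lowest detection p-value 0.0406) and its other probe on none (lowest 0.191). The brighter probe gave 5.50, 5.10 and 5.13 on pDC arrays and 5.24, 5.30 and 5.53 on precursor arrays, close to the lowest detected signal of an array, which ranged from 5.45 to 5.64. A difference was not detectable at these signals.

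Zeb2, a repressor that binds E-boxes, had 5 probes, of which 3 could be tested and 2 were not above background on any array. The brightest gave 10.32, 10.06 and 8.95 on pDC arrays and 10.33, 9.99 and 10.18 on precursor arrays. The next gave 8.78, 9.04 and 7.98 in pDCs and 8.46, 8.65 and 8.61 in precursors. The last tested probe gave 7.81, 7.27 and 5.93 in pDCs and 6.98, 6.94 and 6.47 in precursors. All 3 probes were lowest on CCR9+ pDC replicate 3, and the groups overlapped for each of them.

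The gene's log2 difference from its brightest probe was 0.39 and did not pass (95% interval -0.43 to 1.21, limma adjusted p = 0.421). The probe fits gave 0.39, -0.03 and -0.21, with adjusted p-values of 0.449, 0.949 and 0.775. Without CCR9+ pDC replicate 3 the gene's difference was -0.02 (limma adjusted p = 0.923), so neither its size nor its sign is fixed by these arrays. The SD of Zeb2 among pDC arrays, 0.73, was higher than that of 97.4% of all genes tested, and among precursor arrays it was 0.17. CCR9+ pDC replicate 3 also had the fewest probes above background, 15254 against 16477 to 16905 on the other 5 arrays, and the lowest mean correlation with its own group, 0.976. Whether that plays a part in the Zeb2 values was not tested.

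**Figure D2:**
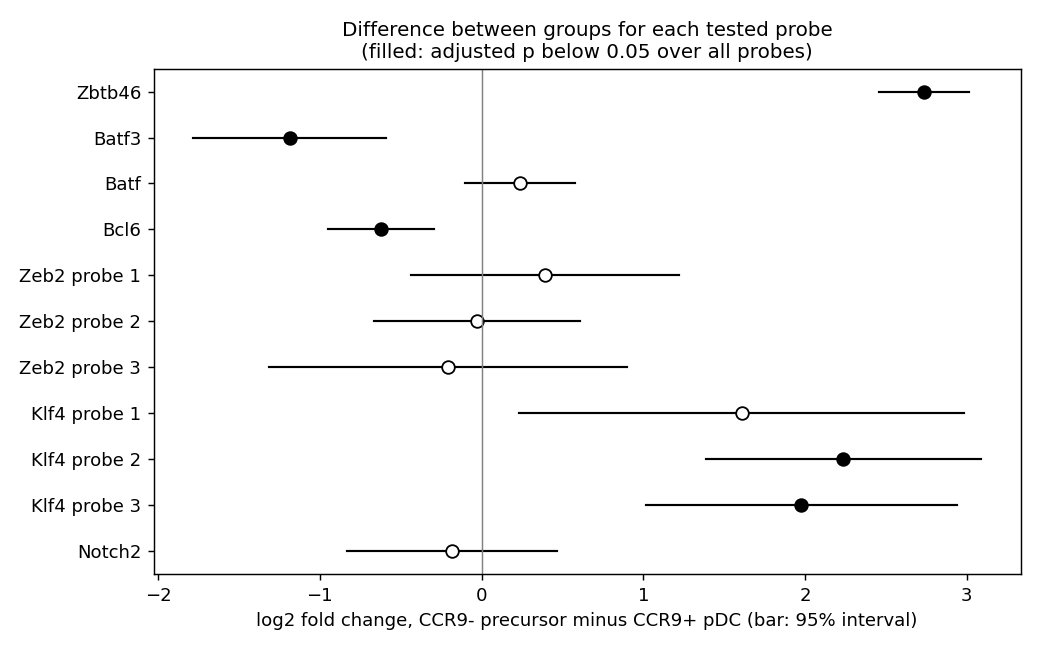
Log2 fold change, precursor minus pDC, of each tested member probe from the limma fit of all 16857 tested probes, with its 95% interval. Filled points passed the adjusted threshold: Zbtb46 and Klf4 probes 2 and 3 higher in precursors, Batf3 and Bcl6 lower.

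Klf4, a zinc finger factor of monocytes and of a subset of conventional dendritic cells that is also induced quickly by stress and growth signals, had 3 probes, all above background on every array. The brightest gave 7.61, 8.95 and 10.01 on pDC arrays and 10.11, 10.42 and 10.86 on precursor arrays. The next gave 7.13, 8.41 and 8.35 in pDCs and 9.99, 10.11 and 10.49 in precursors. The last gave 6.43, 7.92 and 7.48 in pDCs and 8.87, 9.19 and 9.71 in precursors. On all 3 probes every precursor array lay above every pDC array, though for the brightest the gap between the groups was narrow.

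The call of Klf4 depended on the probe. The gene is represented by its brightest probe, whose 3.05-fold difference did not pass (log2 fold change 1.61, SE 0.57, 95% interval 0.24 to 2.98, limma adjusted p = 0.0705). In the fit of all 16857 probes, where 29.3% of probes were called, the other 2 Klf4 probes were called, at 4.71-fold (limma adjusted p = 0.00415) and 3.94-fold higher (limma adjusted p = 0.0114). In that fit 5 member probes from 4 genes were called, 3 higher (15.6% of all probes) and 2 lower (13.7%). With the mean of its probes Klf4 rose by 1.94 on the log2 scale (limma adjusted p = 0.0106), and without CCR9+ pDC replicate 3 its brightest probe rose by 2.18 (limma adjusted p = 0.00981), which brought the members called higher to 2. Without CCR9+ pDC replicate 1 the log2 fold change of the brightest probe was 0.99 and did not pass (limma adjusted p = 0.0967), and with an intensity trend in the prior the adjusted p from limma was 0.158.

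Klf4 also differed between arrays of the same group. The SD of its brightest probe among pDC arrays, 1.21, was higher than that of 99.6% of the genes tested. For its other 2 probes that SD was 0.72 and 0.77. Its brightest probe was lowest on both arrays numbered 1 and highest on both numbered 3. Of all genes tested 6.2% had that pattern, and Klf4 was the only one of the 7 tested members with it. Of 10 tested genes in the leucine zipper list 6 had it: Jun, Junb, Jund, Fos, Fosb and Batf2.

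Fos, an immediate early gene chosen here after its values were seen, gave 12.57, 13.73 and 13.93 on pDC arrays and 12.06, 13.33 and 13.98 on precursor arrays. Fosb, its relative and likewise chosen afterwards, gave 9.79, 11.44 and 12.41 in pDCs and 9.11, 10.46 and 11.78 in precursors. Both genes were lowest on the arrays numbered 1 and highest on those numbered 3 in each group, and neither passed the test (limma adjusted p = 0.716 and 0.528). Fosb was lower in precursors than in pDCs at every number, and Fos at the numbers 1 and 2. The summed signal of the whole list ranged from 10300 to 27800 on pDC arrays and from 6810 to 23500 on precursor arrays. The brightest Klf4 probe shared the order of the arrays with these genes but not the direction between groups. The other 2 Klf4 probes were also lowest on both arrays numbered 1, but in pDCs they were highest on the array numbered 2. The part of this array pattern in the Klf4 values was not tested.

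**Figure D3:**
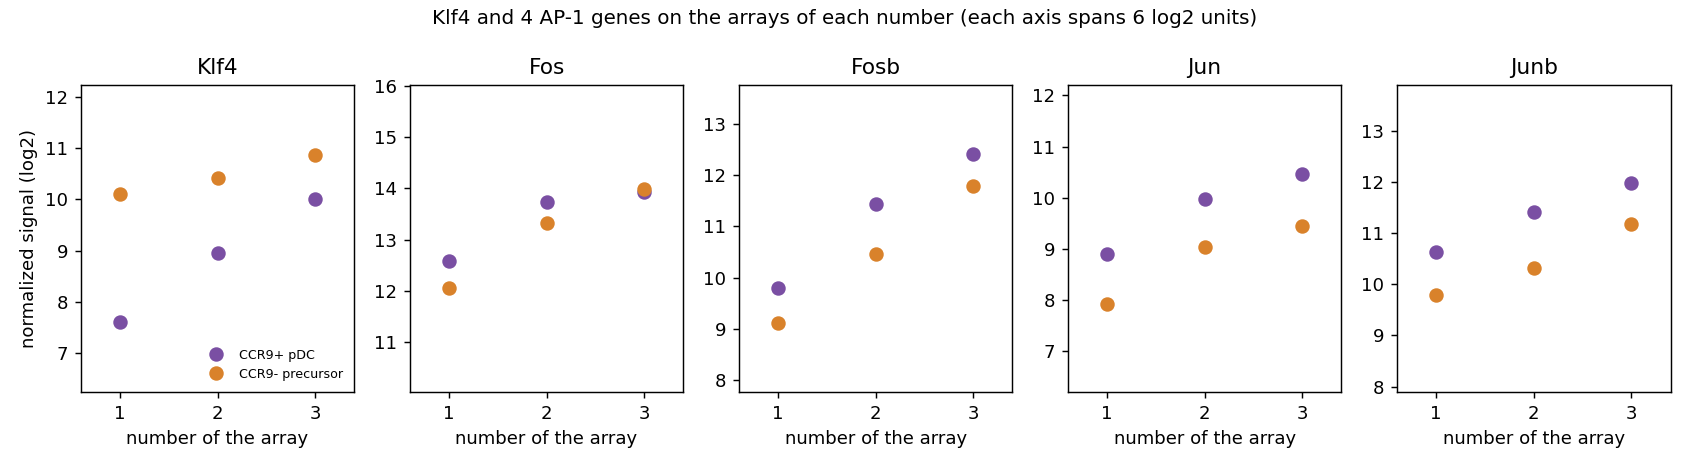
Normalized signal (log2) of Klf4 (brightest probe) and of the AP-1 genes Fos, Fosb, Jun and Junb against the number of the array, for pDCs and precursors. Within each group all 5 genes are lowest on the array numbered 1 and highest on the array numbered 3, and Klf4 alone is higher in precursors at every number.

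Notch2, the receptor through which stromal Notch ligands support a subset of splenic dendritic cells, had 2 probes. The tested one gave 5.67, 5.91 and 6.69 on pDC arrays and 5.85, 6.14 and 5.74 on precursor arrays, and the other was not above background on any array. The groups overlapped, with CCR9+ pDC replicate 3 highest, and the log2 difference of -0.18 did not pass (95% interval -0.83 to 0.46, limma adjusted p = 0.634). Without that array the difference was 0.12 (limma adjusted p = 0.581). Rbpj, which carries the Notch signal to DNA, had 3 probes, of which 1 was above background on a single precursor array (detection p-value 0.047) and 2 on none, so no difference was detectable.

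Of 19 other Notch pathway genes tested, 7 fell and 1 rose in precursors (Dtx4, a Deltex gene chosen after its values were seen, 1.78-fold), with a median log2 fold change of -0.0014. These 8 calls in 19 are near the 35.8% called over all genes. By direction, 7 of 19 lower stands against 17.6% of all genes, and 1 of 19 higher against 18.2%. No test of the list as a set was run. Notch3, a paralog of Notch2, had log2 means of 8.34 ± 0.09 in pDCs and 5.35 ± 0.17 in precursors (SD, n = 3), where 1 array was above background. It fell 7.95-fold (log2 fold change -2.99, limma adjusted p = 1.46e-05), a size that depends on the background correction: without it the log2 fold change was -1.46, and with the authors' processed values -1.47. Dll1, a Notch ligand gene, was not above background in precursors and was at least 1.49-fold lower on background-corrected signals (limma adjusted p = 0.00065). Aph1b and Psen2, subunits of the gamma-secretase that releases the Notch intracellular domain, fell 2.12-fold and 2.04-fold (limma adjusted p = 0.00442 and 0.000928). Without background correction the log2 fold changes of Dll1, Aph1b and Psen2 were -0.49, -0.46 and -0.62, all called. A further 16 genes of the list with probes were too dim to test.

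Of 8 other transcription factor genes of conventional dendritic cells tested, 1 rose and 2 fell, 3 in 8 against 35.8% of all genes. Relb, which encodes a member of the NF-kappaB family, had log2 means of 7.70 ± 0.10 in pDCs and 5.83 ± 0.18 in precursors (SD, n = 3) and fell 3.66-fold (log2 fold change -1.87, limma adjusted p = 6.55e-05), a log2 value that was -0.87 without background correction and -0.89 when taken from the authors' processed table. Id2, which inhibits E proteins, had a log2 fold change of -1.28 (limma adjusted p = 0.0443), and Spi1, which encodes PU.1, one of 0.73 (limma adjusted p = 0.0293). The Id2 call held under 8 of 16 settings and ended without CCR9+ pDC replicate 1 or 2 (limma adjusted p = 0.116 and 0.119) and without precursor replicate 1, 2 or 3 (0.0791, 0.127 and 0.116). The Spi1 call held under 11 and ended without CCR9+ pDC replicate 2 or 3 (limma adjusted p = 0.0866 and 0.0614) and without precursor replicate 1 or 2 (0.0892 and 0.0701). The differences of Irf4, Irf8, Ikzf1, Stat3 and Rel were -0.11, 0.10, 0.25, 0.14 and -0.86, and none passed (limma adjusted p = 0.714, 0.610, 0.0643, 0.859 and 0.169). Ikzf1 was called under 5 of 16 settings, among them no background correction (limma adjusted p = 0.0211), and Rel under 3, among them the fit without precursor replicate 3 (-1.32, limma adjusted p = 0.0178); without precursor replicate 2 Rel was -0.55.

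Family relatives of the members were also compared. Of 8 tested, which include Zeb1 and members of the Klf family, only Zbtb45, a BTB zinc finger gene, was called, 1.53-fold higher (limma adjusted p = 0.012), and the median log2 fold change was -0.22. Over all genes 35.8% were called, 18.2% higher.

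**Figure D4:**
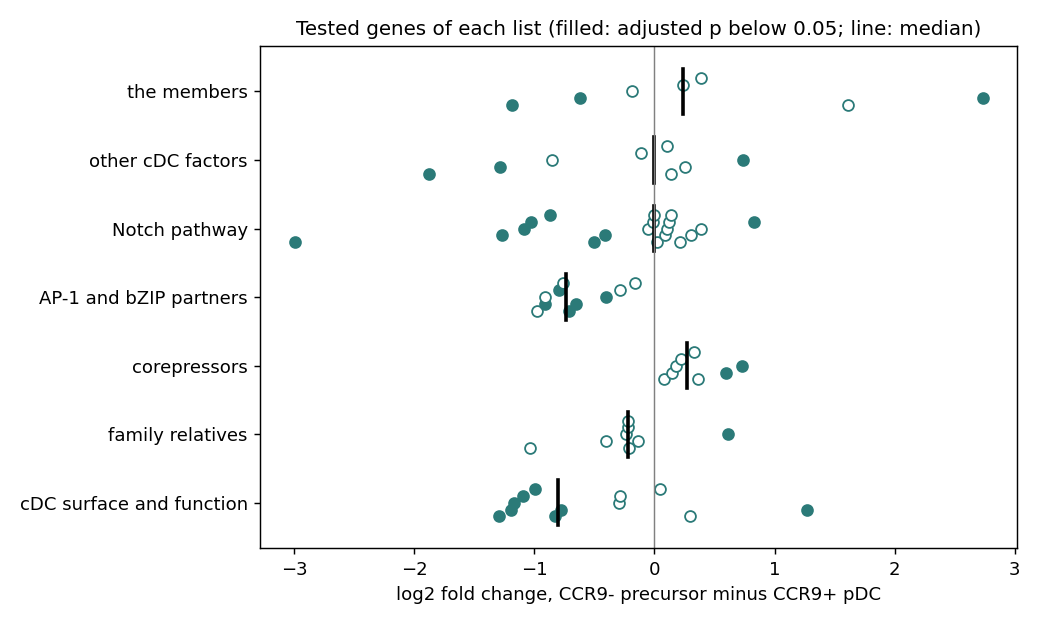
Log2 fold change of each tested gene, precursor minus pDC, for the 7 tested members and for 6 lists around them. Filled points passed the adjusted threshold and black lines are medians. Batf3 is the lowest member at -1.19, and Zbtb46 is drawn at its fitted value although its pDC signals are not above background.

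Surface and function genes of conventional dendritic cells did not follow Zbtb46. Of 12 tested, 1 rose, Itgax, which encodes CD11c (2.41-fold, limma adjusted p = 0.000662, above background on 2 of 3 pDC arrays, log2 fold change 1.27 and without background correction 0.50), and 7 fell, against 17.6% of all genes, with a median log2 fold change of -0.80. Cadm1, an adhesion gene of cross-presenting cells, fell 2.46-fold (limma adjusted p = 0.00196), the lectin gene Cd209a fell 2.29-fold (limma adjusted p = 0.00521) and the lectin gene Mgl2 fell 2.25-fold (limma adjusted p = 0.000419). The 4 not called were Clec9a, Itgae, Dpp4 and Naaa, named after their values were seen. Their log2 fold changes were -0.29, -0.29, 0.30 and 0.05 (limma adjusted p = 0.110, 0.265, 0.0603 and 0.747). Of the listed genes with probes, 7 were too dim to test: Flt3, Xcr1, Tlr3, Ly75, Clec4a4, Itgam and Ccr7.

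The labels were checked against marker lists. Of 14 tested pDC markers, 14 were above background on every pDC array and 13 on every precursor array. In precursors 6 fell, 1 rose (Ly6d, 1.34-fold, limma adjusted p = 0.0153) and 7 were not called. The median log2 fold change of the 14 was -0.41. The gene Klk1 was 24.1-fold, Lag3 6.00-fold, Tlr7 3.73-fold and Irf7 2.89-fold lower (limma adjusted p = 3.47e-06, 1.46e-05, 3.31e-05 and 7.55e-05; these 4 were chosen after their values were seen), while the probe of Ccr9 was too dim to test and checks nothing. Markers of other cells moved with the groups in which Batf3 and Bcl6 were higher. Of 16 tested monocyte and macrophage markers 15 fell in precursors, with summed signals of 34500 to 43600 on pDC arrays and 3250 to 3910 on precursor arrays, and 4 of the 16 were above background on no precursor array. All 11 tested granulocyte markers fell (summed signals 102000 to 117000 against 51500 to 60300), as did all 7 basophil and mast cell markers (5620 to 7470 against 1900 to 2490). In the B-lineage list 2 of 6 fell, in the T and natural killer list 2 of 4, and in the erythroid list 2 of 4, and none rose. Their part in the differences of Batf3, Bcl6, Notch3 and the dendritic cell surface genes was not tested.

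**Figure D5:**
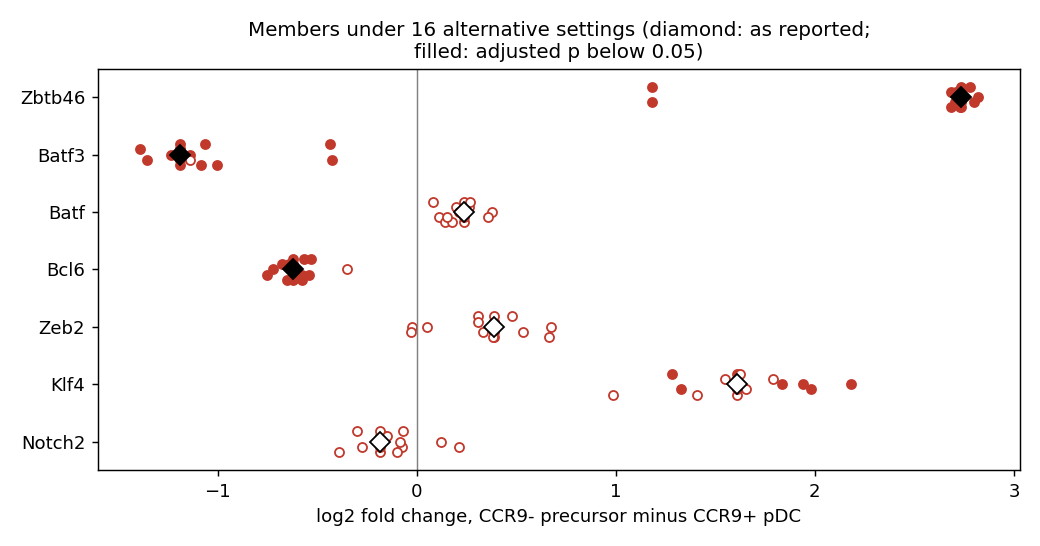
Log2 fold change, precursor minus pDC, of the 7 tested members under 16 alternative settings (circles) and as reported (diamonds), filled where the adjusted p is below 0.05. Zbtb46 is called under all 16, Batf3 and Bcl6 under 15 each, Klf4 under 7, and Batf, Zeb2 and Notch2 under none.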

How the data were processed

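Illumina single-colour arrays of 6 sorted samples were used, 3 a group. Each probe has a raw linear intensity and a detection p-value in the deposited table, per the file headers. The authors deposited also a processed intensity table; its normalization is not stated, and it served as an alternative. BeadStudio and lumi are named in the submitters' processing notes. Median raw signal was 135.9 to 163.6, and 3 arrays a group limit precision.

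Signals were corrected with limma's normexp model from the detection p-values (offset 16), quantile normalized and log2 transformed (R 4.3.3, limma 3.58.1). Probes with detection p below 0.05 on at least 3 arrays were kept, 16857 of 45281. Platform symbols were updated through Entrez identifiers (RefSeq, GRCm38.p6), and each gene was represented by its brightest kept probe, giving 9561 genes. Differences were fitted with lmFit and eBayes on all arrays, and in a second fit on all kept probes; the code was tested on simulated data. A lower bound sets the brighter mean against the higher of the dim probe's signal and the lowest detected signal of each array. It holds only for background-corrected signals, and differences without that correction can be smaller. Named genes were all members, up to 4 called genes of each of 6 lists, and all tested factors of 1 list. The 3 most like Zbtb46 were also named, with provisional gene names left out. Members and lists were chosen with earlier results of these data known. Sequences of the start-site windows are from RefSeq. Alternatives covered background, scaling, the authors' values, filters, probe means, the prior, a replicate block and single arrays left out.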

Additional observations from a re-analysis of the deposited data

How the results depend on the processing

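Over 16 alternatives Zbtb46, Batf3, Batf, Bcl6 and Klf4 kept their direction. The members called higher numbered 2 instead of 1, Klf4 joining, with no background correction, under median scaling, with the authors' processed values, with the mean of probes and in an added fit, chosen with the data in view, that leaves out the third array of each group. The members called lower numbered 1 instead of 2 under median scaling and without both arrays numbered 3. Leaving out single arrays gave 1 to 2 members called higher, 2 lower throughout, and 3 to 6 member probes called against 5 (3 without precursor replicate 2). All genes called numbered 2442 to 3532 in those fits against 3420. Under median scaling 68.3% of calls were higher against 50.8%.

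Arrays share numbers 1 to 3 between groups. Deviations of same-numbered arrays correlated at 0.35, 0.04 and 0.24, and those of differently numbered arrays at -0.30 to 0.06. The main fit took no pairs, and whether same-numbered arrays share an isolation was not tested. With a replicate block 2 members were called higher, with Klf4 at an adjusted p of 0.0245, and 3361 genes in all; no other member call changed, and the basic leucine zipper genes called lower numbered 7 against 5.

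Background correction set the size of many differences: without it the log2 fold changes of Spi1, Jund, Fosl2, Tbl1x and Id2 were 0.31, -0.33, -0.45, 0.34 and -0.78 against 0.73, -0.91, -0.71, 0.60 and -1.28, all still called. Signs turned only for differences that had not passed the test. Without both arrays numbered 3 the values were -0.028 for Zeb2 and its brightest probe, 0.21 for Notch2, 0.0021 for Irf4 and -0.36 for Stat3. Under median scaling Irf4 was 0.10 and the second Zeb2 probe 0.22, and with the authors' values Irf8 was -0.070. With single arrays left out, Zeb2 and its brightest probe ranged from -0.021 to 0.67, its other tested probes from -0.34 to 0.19 and from -0.76 to 0.19, Notch2 from -0.39 to 0.12, Irf4 from -0.28 to 0.090 and Stat3 from -0.51 to 0.49. The causes were not tested. Dim signals limit Zfp366, Rbpj and the second Batf3 probe.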
